A study of Mus musculus with 8 samples.

Results

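The genes described here are the ones that govern entry into the cell cycle from G1: the D-type cyclins Ccnd1, Ccnd2 and Ccnd3, the kinases Cdk4 and Cdk6, the inhibitors Cdkn1a, Cdkn1b, Cdkn1c and Cdkn2b, and the retinoblastoma gene Rb1. They were taken by symbol, and every probe of the array with one of these 10 symbols was used. Of the 10 genes, 9 were matched to probes in the annotation used here, 18 probes in all among the 25697 of the array. Cdk4 was not analysed here. Ccnd1, Ccnd3, Cdkn1a and Cdkn1b had 3 probes each, Rb1 had 2, and Ccnd2, Cdk6, Cdkn1c and Cdkn2b had 1. A probe was kept when 2 or more arrays detected it above their negative control beads (detection p under 0.05). All 18 probes passed, but Ccnd1 probe ILMN_2669793 did so through IFE arrays alone and Cdkn1c through Gli1+ and CD34+ arrays alone.

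The RNA came from basal keratinocytes of adult mouse back skin in telogen, the resting phase of the hair cycle. All donors were Gli1-eGFP/+ mice on an outcrossed Swiss Webster background, so every group carried the reporter allele, and each sample pooled 2 mice. Viable single cells with surface α6 integrin, a marker of basal keratinocytes, were sorted into 3 groups. Gli1+ cells were GFP-positive (2 arrays, replicates 2 and 3, because the RNA of replicate 1 was not good enough), CD34+ cells were GFP-negative with the bulge marker CD34 (3 arrays), and IFE cells, for interfollicular epidermis, were GFP-negative without CD34 (3 arrays). The labels give neither age in weeks nor sex. Each level below is a background-corrected and quantile-normalised log2 intensity, each difference is between group means on that scale with its standard error (SE), and each adjusted p comes from limma with Benjamini-Hochberg adjustment over 14252 probes. Differences are Gli1+ or CD34+ minus IFE, or Gli1+ minus CD34+, and the 3 comparisons share arrays.

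D-type cyclins are the regulatory partners of Cdk4 and Cdk6, and their synthesis depends on growth signals. The cyclin D kinases begin the phosphorylation of the retinoblastoma protein, which in its hypophosphorylated form binds E2F transcription factors and holds back the genes of S phase. Inhibitors of the INK4 family, such as p15 from Cdkn2b, bind Cdk4 and Cdk6 directly. Those of the CIP/KIP family, p21 (Cdkn1a), p27 (Cdkn1b) and p57 (Cdkn1c), bind cyclin-kinase complexes and inhibit Cdk2 above all. In hair follicles, bulge stem cells are mostly quiescent during telogen, while the interfollicular epidermis is renewed continuously.

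RefSeq promoter windows of GRCm38.p6, from 250 bases before to 50 after a gene's start, were given for 6 of the 10 genes, in 8 windows. The 4 windows printed here belong to Cdk6, which passed the test in both comparisons with IFE, to Ccnd3, which has 2 starts and whose probes went apart, and to Cdkn1a, a p53 target whose upstream start lies in a window with p53 half-sites. Capitals mark matches, on either strand, to the E-box (CACGTG) and the TATA box (TATAAA) in Cdk6, to the GC box (GGGCGG) and the CRE core (TGACGT) in Ccnd3, and to the p53 half-site in Cdkn1a.
Cdk6 window at chr5:3343643-3343942 (+ strand): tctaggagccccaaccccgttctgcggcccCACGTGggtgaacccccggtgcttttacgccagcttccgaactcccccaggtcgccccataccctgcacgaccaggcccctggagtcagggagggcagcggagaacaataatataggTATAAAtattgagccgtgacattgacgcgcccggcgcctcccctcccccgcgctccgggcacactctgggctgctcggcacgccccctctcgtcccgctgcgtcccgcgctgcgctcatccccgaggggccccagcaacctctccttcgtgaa
Ccnd3 window at chr17:47504801-47505100 (+ strand): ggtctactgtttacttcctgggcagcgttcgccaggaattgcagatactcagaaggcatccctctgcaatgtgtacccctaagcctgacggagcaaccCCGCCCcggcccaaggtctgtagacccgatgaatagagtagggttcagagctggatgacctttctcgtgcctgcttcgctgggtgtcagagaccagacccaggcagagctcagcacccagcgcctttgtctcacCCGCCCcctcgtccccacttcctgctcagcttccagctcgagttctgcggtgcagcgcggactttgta
Ccnd3 window at chr17:47593217-47593516 (+ strand): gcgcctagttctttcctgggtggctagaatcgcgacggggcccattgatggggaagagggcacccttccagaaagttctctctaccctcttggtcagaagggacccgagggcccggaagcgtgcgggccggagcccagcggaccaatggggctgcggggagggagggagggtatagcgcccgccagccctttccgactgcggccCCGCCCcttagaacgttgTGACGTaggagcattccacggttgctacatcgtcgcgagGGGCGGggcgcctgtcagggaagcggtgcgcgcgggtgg
Cdkn1a window at chr17:29090729-29091028 (+ strand): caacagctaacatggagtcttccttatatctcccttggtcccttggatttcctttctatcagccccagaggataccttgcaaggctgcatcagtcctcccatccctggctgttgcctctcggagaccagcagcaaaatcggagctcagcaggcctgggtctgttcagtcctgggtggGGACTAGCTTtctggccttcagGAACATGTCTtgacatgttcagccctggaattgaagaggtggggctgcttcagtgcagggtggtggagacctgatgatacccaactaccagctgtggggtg
In Cdk6 the E-box begins 220 bases and the TATA box 103 bases before the start. In the printed Cdkn1a window the half-sites begin 73 and 51 bases before it. The second Cdkn1a window, not printed, held no p53 half-site and 2 GC boxes. Among all 32851 windows, 7.15% held the E-box, 13.6% the TATA box, 35.7% the GC box, 7.51% the CRE core and 8.36% a p53 half-site, and these matches are descriptions of letters, not of binding. Neither an E2F site (TTTGGCGC or TTTCGCGC, in 0.813% of all windows) nor a GLI site (GACCACCCA, in 0.253%) was found in a window of these genes, on either strand. None of the searched motifs overlaps another in the printed windows.

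The Gli1+ array of replicate 3 stood apart from the other arrays. It detected 9925 probes, against 11188 in Gli1+ replicate 2, 12209 to 12601 in CD34+ and 11027 to 11680 in IFE samples. It missed 946 probes that all other arrays detected, against 245 for Gli1+ replicate 2 and at most 172 for any other array. Across kept probes its correlation with arrays of the other groups was 0.811 to 0.829, and that of Gli1+ replicate 2 was 0.865 to 0.879. The Gli1+ arrays correlated with each other at 0.804, against 0.927 to 0.939 among CD34+ and 0.936 to 0.944 among IFE arrays. Of the 18 probes, 4 differed by more than 1 log2 unit between the Gli1+ arrays, namely Ccnd2, Cdkn1b ILMN_1228598, Cdkn1c and Rb1 ILMN_2861644, against 32.5% of all kept probes. Gli1, which the sort selected through its reporter, had levels of 8.82 and 8.36 in Gli1+ cells, 7.06, 8.42 and 7.35 in CD34+ cells and 5.07, 5.32 and 5.01 in IFE cells. Gli1 RNA was therefore also measured in the GFP-negative CD34+ cells. Cd34 was at 8.18 and 8.47 in Gli1+ cells, 8.50 to 8.86 in CD34+ cells and 5.44 to 6.31 in IFE cells, and Itga6, which encodes α6 integrin, was detected on all 8 arrays.

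Cdk6 was the only one of the measured genes that passed the test, and it was lower in Gli1+ and in CD34+ cells than in IFE cells. In CD34+ against IFE cells, 1 of the 18 probes was called (lower) and none higher, where 4.10% of all kept probes were called, 2.50% higher and 1.60% lower. In Gli1+ against IFE cells, again 1 was called (lower) and none higher, with 1.60% of all kept probes called, 0.954% higher and 0.646% lower. In Gli1+ against CD34+ cells none was called, with 0.919% of all kept probes called, 0.393% higher and 0.526% lower. At an unadjusted p under 0.05 the counts were 9, 7 and 3 of 18 probes, beside 15.7%, 16.9% and 16.7% of all kept probes. The median difference of the 18 probes was 0.05 in CD34+ against IFE cells, where that of all kept probes was −0.01. It was −0.12 in Gli1+ against IFE cells and −0.07 in Gli1+ against CD34+ cells, with −0.06 for all kept probes in each.

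The gene set contained more probes with separated groups than calls. In CD34+ against IFE cells 10 of the 18 probes, from 7 genes, had groups that did not overlap (55.6%, against 26.3% of all kept probes). The share was 9 probes or 50% in Gli1+ against IFE cells, with 31.2% of all kept probes, and 7 probes or 38.9% in Gli1+ against CD34+ cells, with 30.9% of all. Several probes belong to 1 gene and are not independent of each other. For CD34+ against IFE cells, Ccnd1 ILMN_2669793 and Cdkn1c had passed the detection filter only through groups where they were higher. Their separation is favoured by that filter and is no support of its own. Ccnd1 was among the 7 genes through this dim probe alone, which also counted in Gli1+ against IFE cells. Cdkn1a ILMN_2846776, undetected on the CD34+ arrays, counted in both comparisons with CD34+ cells.

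**Figure D1:**
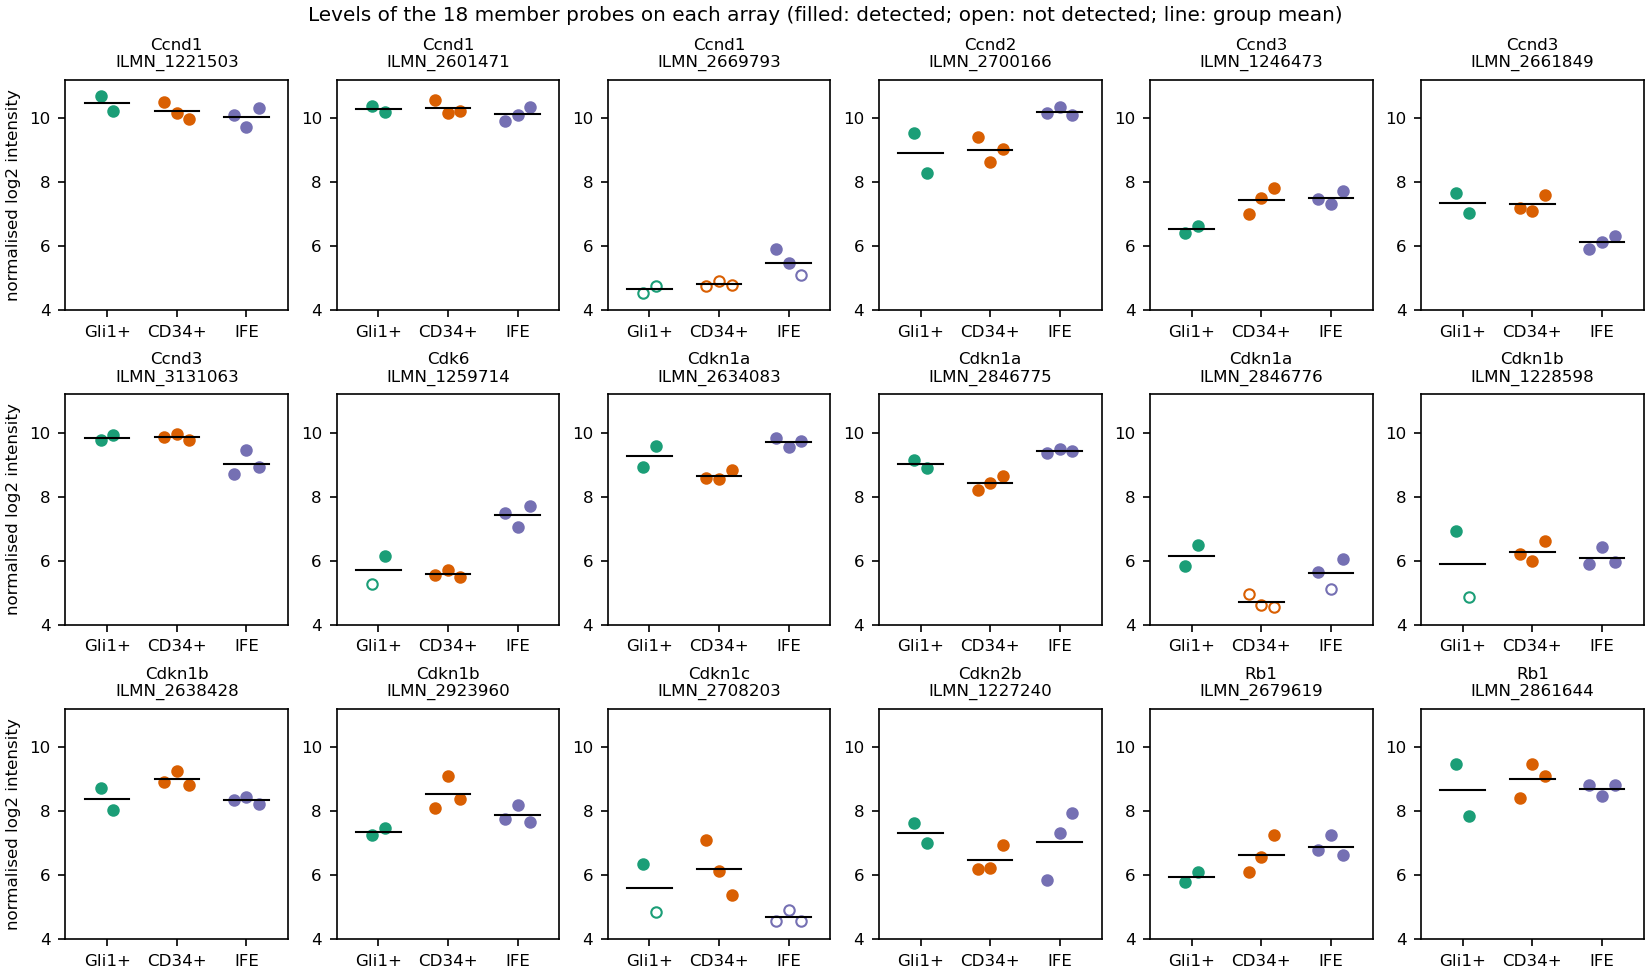
Normalised log2 intensity of each of the 18 probes on each array, by group, with filled points for detected and open points for undetected arrays and a line at the group mean. Cdk6 and Ccnd2 lie higher on all 3 IFE arrays than on any Gli1+ or CD34+ array, and Ccnd3 probes ILMN_2661849 and ILMN_3131063 lie lower on them.

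Cdk6, one of the catalytic partners of the D-type cyclins, was measured by probe ILMN_1259714. Its level was 5.27 and 6.13 on the Gli1+ arrays, 5.55, 5.71 and 5.49 on the CD34+ arrays and 7.49, 7.06 and 7.71 on the IFE arrays. Every IFE array lay above every array of the other groups, and the Gli1+ and CD34+ arrays overlapped. The probe was not detected on the Gli1+ array of replicate 2 and was detected on the other 7 arrays.

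The raw intensities, before any correction, were also highest on the IFE arrays. They were 134 and 155 on the Gli1+ arrays, 145, 142 and 146 on the CD34+ arrays and 235, 209 and 310 on the IFE arrays. The standard error over the 35 to 51 beads of an array was 6.56 and 11.3 in Gli1+, 8.48 to 9.02 in CD34+ and 16.2 to 23.7 in IFE samples. The median raw intensity of all probes lay between 117.9 and 129.1 on the 8 arrays, so the Gli1+ and CD34+ values of Cdk6 were close to the middle of their arrays.

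**Figure D2:**
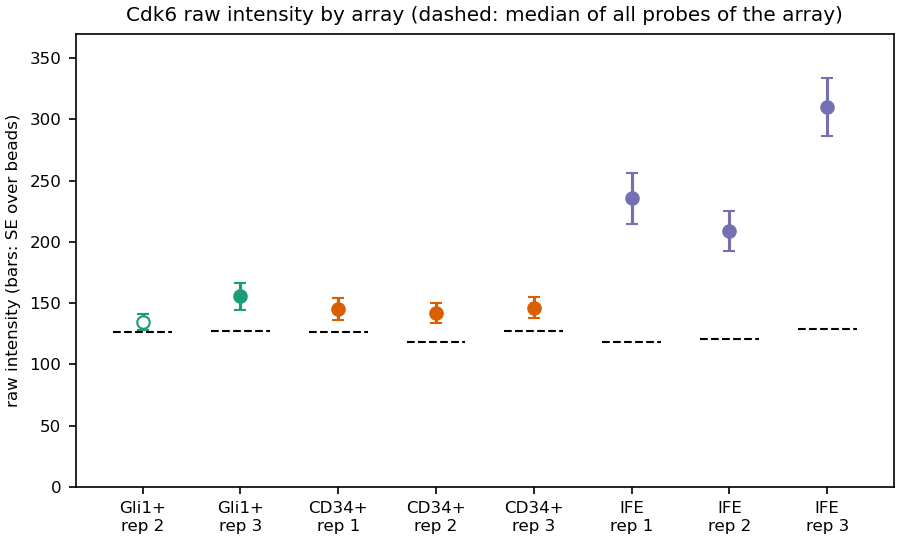
Raw intensity of the Cdk6 probe on each array, with bars for the standard error over beads, an open point for the array on which it was not detected and a dashed line at the array's median over all probes. The 3 IFE arrays, at 235, 209 and 310, lie above the Gli1+ and CD34+ arrays, which lie between 134 and 155.

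The Cdk6 level averaged 5.58 ± 0.11 in CD34+ cells and 7.42 ± 0.33 in IFE cells (SD, n = 3 each). The difference of −1.84 ± 0.32 (SE), with a 95% interval from −2.55 to −1.12, is 3.57-fold lower in CD34+ cells, at an adjusted p of 0.0113 by limma. Its size depended on the processing. Over 19 alternatives it lay between −2.02 and −0.78, and it was −0.90 without background correction. The call was kept in 15 of 19 alternative analyses. It was lost with the deposited log2 values (−0.78, limma adjusted p = 0.0539), without CD34+ replicate 3 (0.0522), without IFE replicate 1 (0.0569) and without IFE replicate 3 (0.0686). Leaving out either Gli1+ array gives the same fit as the compared groups alone. Counts of alternatives for CD34+ minus IFE, here and below, therefore hold that fit more than once. Fewer cells that express a gene and less RNA per cell cannot be told apart in sorted bulk samples such as these.

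In Gli1+ cells Cdk6 averaged 5.70 ± 0.61 (SD, n = 2), and the difference from IFE cells was −1.72 ± 0.36 (SE), with an interval from −2.51 to −0.92. This is 3.29-fold lower, at an adjusted p of 0.0479 by limma, just inside the threshold. With the replicate number, which marks a shared pool of mice, as a block, the difference was −1.71 and the limma adjusted p rose to 0.112. The call was kept in 7 of 19 alternatives. It was lost with cyclic loess, the deposited values, no detection filter or the 2 groups alone (0.0569 to 0.148). It was also lost without any 1 of the CD34+ arrays (limma adjusted p = 0.0772 to 0.0832) and without any 1 of the IFE arrays (0.0919 to 0.154). With a lone Gli1+ array, the call was lost without replicate 2 (−1.29) and kept without replicate 3 (−2.15). The kept call rests on Gli1+ replicate 2, which did not detect the probe, and the other groups supply the spread. The difference stayed negative in all 19, between −2.15 and −0.78, with the smallest size for the deposited log2 values.

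Between Gli1+ and CD34+ cells Cdk6 differed by 0.12 ± 0.36 (SE), with an interval from −0.68 to 0.92 (limma adjusted p = 0.897). A difference of up to 0.92 in log2 in favour of Gli1+ cells thus lies inside the interval. Over the 8 arrays the named genes most like Cdk6 were Nuf2, a kinetochore component (Pearson r = 0.972), Tbc1d1, a Rab GTPase-activating protein (0.967), and Clca3a1 (0.965). These correlations are a description over 8 arrays that fall into 3 groups.

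**Figure D3:**
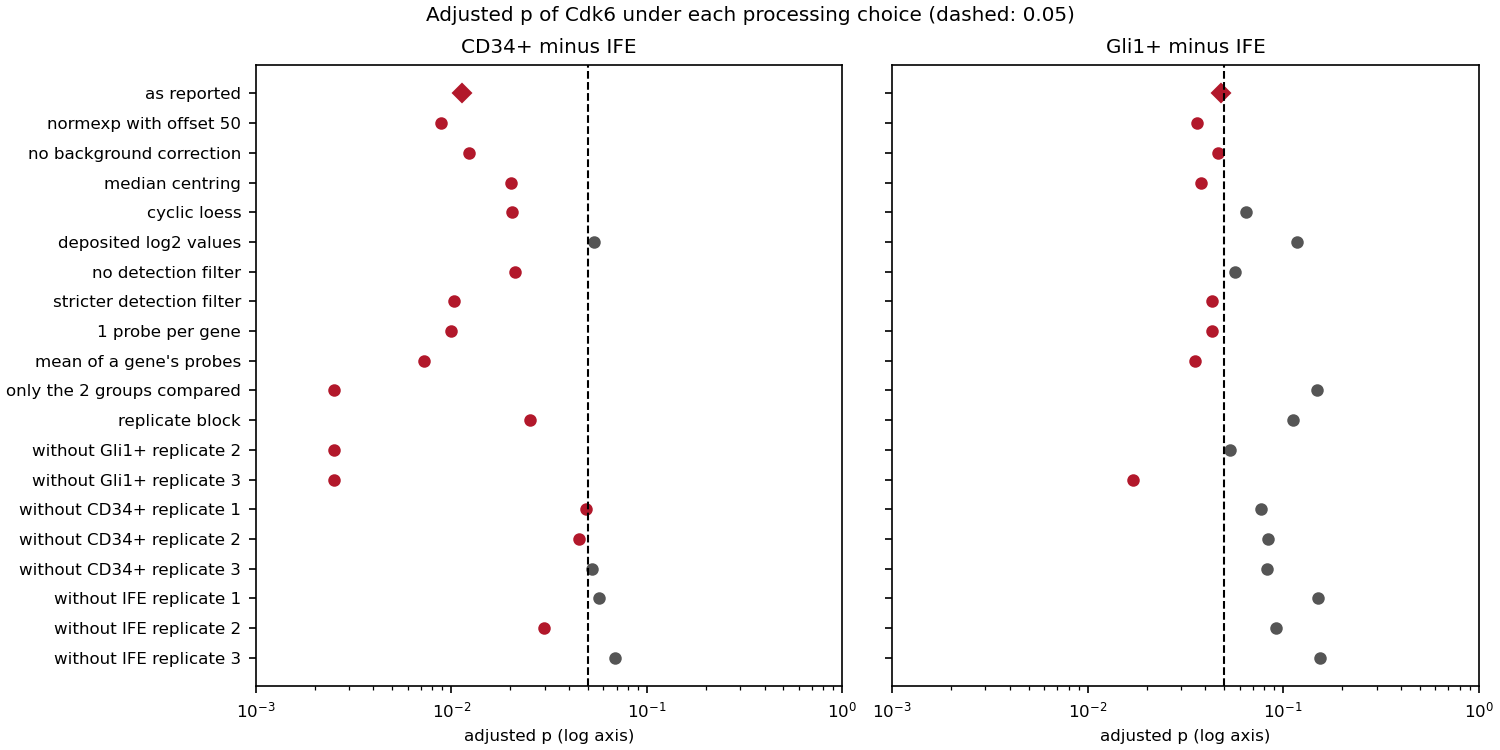
Adjusted p of Cdk6 on a log axis as reported (diamond) and under 19 alternatives (circles) for CD34+ minus IFE and Gli1+ minus IFE, red where under 0.05. The first comparison stays past the threshold in 15 alternatives and the second in 7.

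Among the D-type cyclins, Ccnd2 had lower levels in Gli1+ and CD34+ cells than in IFE cells and Ccnd3 had higher levels on 2 of its 3 probes, but none of these differences passed the test. Ccnd1 is a cyclin induced by growth factors. Probe ILMN_1221503 of Ccnd1 read 10.70 and 10.21 in Gli1+ cells, 10.52, 10.15 and 9.98 in CD34+ cells and 10.09, 9.71 and 10.31 in IFE cells, and the groups overlapped in every comparison. Its differences were 0.18 ± 0.30 for CD34+ minus IFE (95% interval −0.50 to 0.85), 0.42 ± 0.34 for Gli1+ minus IFE (−0.34 to 1.17) and 0.24 ± 0.34 for Gli1+ minus CD34+ (−0.52 to 1.0), with limma adjusted p of 0.852, 0.580 and 0.762. Probe ILMN_2601471 lay between 9.92 and 10.57 on all 8 arrays, with differences of 0.19, 0.16 and −0.03.

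The third Ccnd1 probe, ILMN_2669793, was dim. It read 4.54 and 4.76 in Gli1+ cells and 4.75, 4.92 and 4.77 in CD34+ cells, undetected on all 5 arrays, against 5.90, 5.46 and 5.09 in IFE cells, where 2 arrays detected it. The level was at least 1.01-fold lower in Gli1+ cells (limma adjusted p = 0.232) and at least 1.3-fold lower in CD34+ cells (0.301). Folds given as "at least" set the brighter group's mean against the lowest detected intensity of the dim group's arrays. The other 2 Ccnd1 probes had differences from IFE cells of the opposite sign.

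Ccnd2, the second D-type cyclin, read 9.55 and 8.28 in Gli1+ cells, 9.41, 8.62 and 9.02 in CD34+ cells and 10.16, 10.33 and 10.08 in IFE cells. All IFE arrays lay above all others and close together, whereas the Gli1+ arrays lay more than 1 log2 unit apart. The difference was −1.17 ± 0.37 for CD34+ minus IFE (95% interval −2.0 to −0.35, 2.26-fold lower, limma adjusted p = 0.130) and −1.28 ± 0.42 for Gli1+ minus IFE (−2.20 to −0.35, 2.42-fold lower, 0.155). Gli1+ and CD34+ cells differed by −0.10 ± 0.42 (−1.03 to 0.82, 0.928). The Gli1+ minus IFE difference reached −1.91 at a limma adjusted p of 0.0152 without Gli1+ replicate 2, and stood at −0.64 (0.427) without Gli1+ replicate 3. In these fits the lone Gli1+ array is assumed to vary like the other groups. The CD34+ minus IFE difference passed in 4 of 19 alternatives, at a limma adjusted p of 0.0485 without background correction and 0.0315 without the Gli1+ arrays. The latter fit is counted more than once.

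Ccnd3, the third D-type cyclin, gave different pictures on its 3 probes. Probe ILMN_2661849 read 7.67 and 7.04 in Gli1+ cells, 7.20, 7.11 and 7.61 in CD34+ cells and 5.93, 6.13 and 6.31 in IFE cells, with every IFE array lowest. Its difference was 1.18 ± 0.30 for CD34+ minus IFE (95% interval 0.52 to 1.85, 2.27-fold higher, limma adjusted p = 0.0595) and 1.24 ± 0.34 for Gli1+ minus IFE (2.36-fold higher, 0.0989). Probe ILMN_3131063 had the same order, with 9.76 and 9.92 in Gli1+ cells, 9.85, 9.96 and 9.77 in CD34+ cells and 8.72, 9.45 and 8.91 in IFE cells. Its differences were 0.83 ± 0.29 for CD34+ minus IFE (0.175) and 0.81 ± 0.32 for Gli1+ minus IFE (0.234), and neither probe separated Gli1+ from CD34+ cells (0.06 and −0.02).

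The first Ccnd3 probe, ILMN_1246473, did not share that order. It read 6.40 and 6.64 in Gli1+ cells, 7.0, 7.51 and 7.80 in CD34+ cells and 7.49, 7.33 and 7.71 in IFE cells, so the Gli1+ arrays were lowest and CD34+ and IFE arrays overlapped. Its differences were −0.07 ± 0.30 for CD34+ minus IFE (limma adjusted p = 0.950), −0.99 ± 0.34 for Gli1+ minus IFE (0.171) and −0.91 ± 0.34 for Gli1+ minus CD34+ (0.215). Which Ccnd3 transcript each probe reads was not analysed here, and no single direction is given for the gene. ILMN_2661849 passed in 4 of 18 alternatives for CD34+ minus IFE, at 0.0480 with a stricter detection filter and 0.0238 without the Gli1+ arrays. The latter fit is counted more than once. ILMN_3131063 passed in 1, at 0.0386 with the deposited log2 values.

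**Figure D4:**
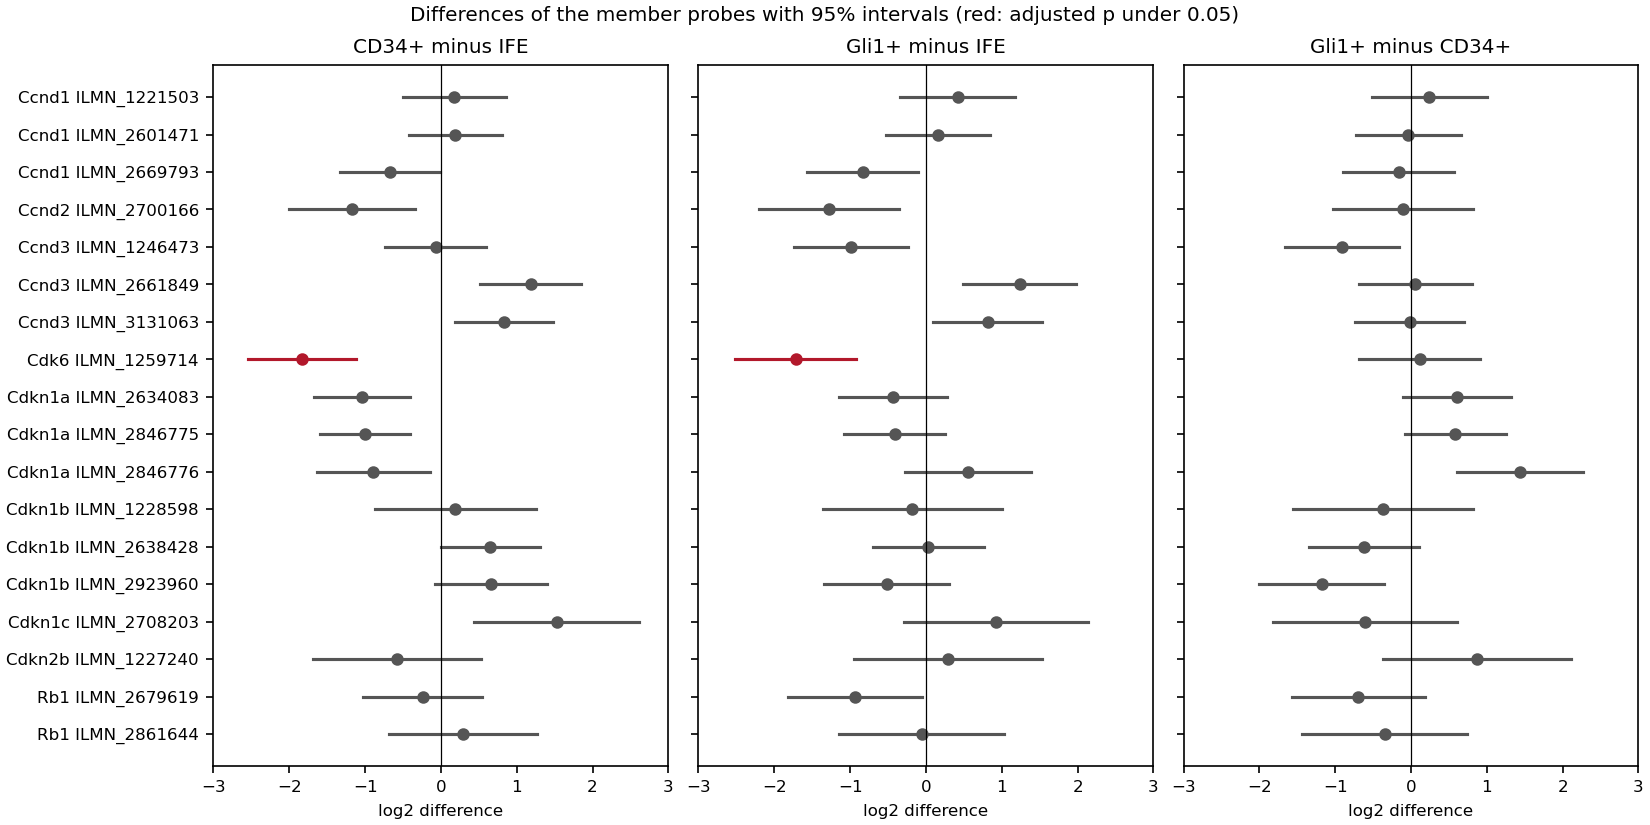
Log2 difference of each of the 18 probes with its 95% interval for CD34+ minus IFE, Gli1+ minus IFE and Gli1+ minus CD34+, red where the adjusted p is under 0.05. Cdk6 is red in the first pair, at −1.84 and −1.72, and no probe is red for Gli1+ minus CD34+.

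Cdkn1a, which encodes the CIP/KIP inhibitor p21, was lowest in CD34+ cells on all 3 probes, although no difference passed the test. Probe ILMN_2846775 read 9.13 and 8.89 in Gli1+ cells, 8.21, 8.43 and 8.63 in CD34+ cells and 9.35, 9.49 and 9.43 in IFE cells, and the 3 groups did not overlap. Probe ILMN_2634083 read 8.94 and 9.59 in Gli1+ cells, 8.59, 8.55 and 8.82 in CD34+ cells and 9.82, 9.54 and 9.73 in IFE cells, with the CD34+ arrays below all others. Probe ILMN_2846776 was dim, at 5.82 and 6.48 in Gli1+ cells, at 4.95, 4.62 and 4.56 and undetected throughout in CD34+ cells, and at 5.63, 5.12 and 6.05 in IFE cells, where 2 arrays detected it.

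The differences for CD34+ minus IFE were −1.0 ± 0.27 for ILMN_2846775 (95% interval −1.59 to −0.41, limma adjusted p = 0.0742), −1.04 ± 0.29 for ILMN_2634083 (−1.68 to −0.40, 0.0821) and −0.89 ± 0.33 for ILMN_2846776 (at least 1.41-fold lower, 0.210). None was under the threshold of 0.05. ILMN_2846775 passed in 7 of 18 alternatives, between 0.0135 and 0.0490, and ILMN_2634083 in 6 of 19, between 0.0187 and 0.0490. The mean over the 3 Cdkn1a probes was −0.98 at a limma adjusted p of 0.0490, and this value is counted for each probe. Both counts also hold the fit without the Gli1+ arrays more than once.

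Gli1+ cells had Cdkn1a levels between the other groups on the bright probes. Gli1+ minus IFE was −0.41 ± 0.30 on ILMN_2846775 (limma adjusted p = 0.525) and −0.43 ± 0.32 on ILMN_2634083 (0.540). Gli1+ minus CD34+ was 0.58 ± 0.30 (0.357) and 0.61 ± 0.32 (0.372). On ILMN_2846776, Gli1+ minus IFE was 0.55 ± 0.37 (0.500) and Gli1+ minus CD34+ was 1.44 ± 0.37 (at least 2.06-fold higher, 0.0978). The last was 1.77 (0.0269) without Gli1+ replicate 2 and 1.11 (0.201) without Gli1+ replicate 3, fits in which the other groups supply the spread for the lone Gli1+ array and the CD34+ arrays did not detect the probe.

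Cdkn1b encodes p27, an inhibitor regulated largely through protein turnover. Probe ILMN_2638428 read 8.71 and 8.03 in Gli1+ cells, 8.90, 9.25 and 8.82 in CD34+ cells and 8.36, 8.44 and 8.22 in IFE cells, so the CD34+ arrays were highest. Probe ILMN_2923960 read 7.24 and 7.46 in Gli1+ cells, 8.09, 9.10 and 8.39 in CD34+ cells and 7.76, 8.18 and 7.66 in IFE cells, with the Gli1+ arrays lowest and CD34+ and IFE arrays overlapping. None of the differences of either probe passed: for CD34+ minus IFE they were 0.65 ± 0.29 (limma adjusted p = 0.318) and 0.66 ± 0.33 (0.381), and for Gli1+ minus CD34+ −0.62 ± 0.33 (0.376) and −1.18 ± 0.37 (0.151). The probes parted for Gli1+ minus IFE, at 0.03 ± 0.33 (0.977) and −0.52 ± 0.37 (0.520).

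The third Cdkn1b probe, ILMN_1228598, differed most between the Gli1+ arrays. It read 6.93 and 4.87 in Gli1+ cells, the lower value undetected, 6.20, 5.99 and 6.62 in CD34+ cells and 5.89, 6.41 and 5.94 in IFE cells. The 2 Gli1+ values lay on either side of all other arrays, and the differences were 0.19 ± 0.48, −0.18 ± 0.53 and −0.37 ± 0.53 for CD34+ minus IFE, Gli1+ minus IFE and Gli1+ minus CD34+. Without Gli1+ replicate 2, Gli1+ minus CD34+ was −1.40 at a limma adjusted p of 0.0484, a value that rests on the single remaining Gli1+ array, which did not detect the probe. Without Gli1+ replicate 3 it turned to 0.66 (0.432).

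Cdkn1c encodes p57, the CIP/KIP member that is imprinted in the mouse. It was not detected in IFE cells, at 4.56, 4.90 and 4.57, and read 7.11, 6.14 and 5.37 in CD34+ cells, detected on all 3 arrays. In Gli1+ cells it read 6.34 and 4.86, detected on the first array alone. CD34+ minus IFE was 1.53 ± 0.49 (95% interval 0.44 to 2.62, at least 1.91-fold higher, limma adjusted p = 0.135), and the CD34+ arrays themselves spanned 7.11 to 5.37. Gli1+ minus IFE was 0.92 ± 0.55 (at least 1.25-fold higher, 0.434) and Gli1+ minus CD34+ was −0.61 ± 0.55 (0.614). The first passed in 3 of 19 alternatives, all of them fits in which the Gli1+ arrays did not enter the spread (0.0463).

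Cdkn2b, whose product p15 is an INK4 inhibitor induced by TGF-beta, was spread widely over the IFE arrays. It read 7.64 and 7.01 in Gli1+ cells, 6.19, 6.23 and 6.95 in CD34+ cells and 5.85, 7.33 and 7.93 in IFE cells. The IFE arrays covered the values of all other arrays, and Cdkn2b was the single probe of the 18 with a spread over 1 log2 unit in that group. Both Gli1+ arrays lay above all CD34+ arrays. The differences were −0.58 ± 0.50 for CD34+ minus IFE (95% interval −1.69 to 0.53, limma adjusted p = 0.667), 0.29 ± 0.56 for Gli1+ minus IFE (−0.95 to 1.53, 0.843) and 0.87 ± 0.56 for Gli1+ minus CD34+ (−0.37 to 2.11, 0.469).

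Rb1, the substrate of the cyclin D kinases, gave no difference past the threshold. Probe ILMN_2861644 read 9.46 and 7.84 in Gli1+ cells, 8.42, 9.48 and 9.10 in CD34+ cells and 8.81, 8.48 and 8.83 in IFE cells, and the groups overlapped throughout. Its differences were 0.29 ± 0.44 for CD34+ minus IFE, −0.06 ± 0.49 for Gli1+ minus IFE and −0.35 ± 0.49 for Gli1+ minus CD34+, at limma adjusted p of 0.828, 0.973 and 0.759. Probe ILMN_2679619 read 5.80 and 6.09 in Gli1+ cells, 6.08, 6.58 and 7.26 in CD34+ cells and 6.78, 7.24 and 6.63 in IFE cells. Here the Gli1+ arrays lay below all IFE arrays, with a difference of −0.94 ± 0.40 (95% interval −1.81 to −0.06, 0.263), and CD34+ minus IFE was −0.24 ± 0.35 (0.825).

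Other genes of the G1/S pathway were read from 7 lists. In 4 of them no gene passed in any comparison: 4 measured genes of cyclin E, Cdk2 and CDK activation, 2 of the other INK4 and ARF inhibitors, 11 pocket protein and E2F genes and 7 genes of p27 and cyclin turnover. Among the values that did not pass, E2f1, an activating E2F, was undetected on both Gli1+ arrays and at least 1.78-fold lower there than in IFE cells (limma adjusted p = 0.0798). E2f4, a mostly repressive E2F, differed by 1.26 for Gli1+ minus CD34+ (0.112). In p27 and cyclin turnover, Fbxo4 differed by −1.53 for Gli1+ minus IFE, detected on 1 of the 2 Gli1+ arrays (0.150). Fbxw7, a ubiquitin ligase subunit that targets cyclin E, differed by −1.19 for Gli1+ minus IFE (0.103) and −1.15 for CD34+ minus IFE (0.0616) on probe ILMN_2844699. Of the 13 probes of that list, 3 were positive for Gli1+ minus IFE (median −0.42) and 8 for CD34+ minus IFE (median 0.12). Mnat1, part of the CDK-activating kinase, differed by −1.30 for Gli1+ minus CD34+ (0.206).

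The E2F-regulated S phase genes lie downstream of the G1 switch. Of 12 measured, 1 was lower and none higher in CD34+ than in IFE cells. That was 1 of 21 probes, where 4.10% of all kept probes were called, 1.60% lower. The median difference of the 21 probes of this list was −0.54, with 19 of 21 negative, beside a median of −0.01 over all kept probes. The 21 probes come from 12 genes and are not independent of each other. The share of negative differences among all kept probes is not given here. The called gene was Ccna2, cyclin A2, with levels of 4.98, 5.23 and 4.76 in CD34+ cells and 6.19, 6.38 and 6.16 in IFE cells, a difference of −1.25 ± 0.30 (limma adjusted p = 0.0472). Ccna2 was detected on 1 of the 3 CD34+ arrays. Its call was kept in 7 of 19 alternatives and was lost with the replicate block (0.104), under 5 other processing choices (0.0537 to 0.226) and without any 1 of the CD34+ or IFE arrays (0.0987 to 0.163). None passed in Gli1+ against IFE cells (median −0.06) or in Gli1+ against CD34+ cells (median 0.29, 15 of 21 positive).

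Of 14 measured p53 targets other than Cdkn1a, 2 were lower and none higher in CD34+ than in IFE cells. These were 2 of 28 probes, where 4.10% of all kept probes were called, 1.60% lower. Sesn2, a stress-induced inhibitor of mTORC1 signalling, read 5.13, 5.51 and 5.66 in CD34+ cells and 8.16, 6.83 and 6.90 in IFE cells on probe ILMN_2948945, a difference of −1.86 ± 0.38 (limma adjusted p = 0.0249). Gadd45a, a growth arrest gene, read 4.92, 4.99 and 5.96 in CD34+ cells and 7.45, 6.60 and 7.18 in IFE cells on probe ILMN_2947568, a difference of −1.78 ± 0.37 (0.0266). The median over the 28 probes was −0.32. The Sesn2 probe was detected on 2 of the 3 CD34+ arrays and the Gadd45a probe on 1. Each kept its call in 10 of 18 alternatives. Sesn2 missed the threshold with the replicate block (0.0525), with the deposited values (0.0871), with no detection filter (0.0574) and without any 1 of the CD34+ arrays or without IFE replicate 1 or 3 (0.0613 to 0.0998). Gadd45a missed it with median centring, the deposited values, no detection filter or the mean of its probes (0.0541 to 0.113), and when CD34+ replicate 1 or 2 or IFE replicate 1 or 3 was left out (0.106 to 0.119).

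In Gli1+ against IFE cells Sesn2 was the 1 p53 target called, on another probe, ILMN_1219984. It read 6.42 and 5.40 in Gli1+ cells and 8.82, 7.37 and 8.39 in IFE cells, a difference of −2.28 ± 0.46 (limma adjusted p = 0.0440). The probe was detected on 1 of the 2 Gli1+ arrays. Probe ILMN_2948945 of Sesn2 differed by −1.0 here (0.267), and ILMN_1219984 by −1.60 for CD34+ minus IFE (0.0653). The call was kept in 7 of 19 alternatives. It was lost with the replicate block (0.131), under 5 other processing choices (0.0683 to 0.147), without Gli1+ replicate 3, without any 1 of the CD34+ arrays and without IFE replicate 1 or 3 (0.0746 to 0.149). The median of the 28 probes was −0.41 in this comparison, beside −0.06 over all kept probes. The call was 1 of these 28 probes, where 1.60% of all kept probes were called, 0.646% lower.

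Among the 9 measured growth-signal inputs the MYC family genes Mycl and Mycn passed, each in 1 comparison. Each call was 1 of 13 probes. Of all kept probes 4.10% were called in CD34+ against IFE and 1.60% in Gli1+ against IFE cells. Mycl was lower in CD34+ cells, where it was undetected at 4.98, 5.0 and 4.71, than in IFE cells, at 6.39, 6.86 and 6.30, by at least 2.66-fold (−1.62 ± 0.31, limma adjusted p = 0.0180). Mycn was higher in Gli1+ cells, at 6.91 and 6.26, than in IFE cells, where it was undetected at 4.83, 4.67 and 4.64, by at least 2.49-fold (1.87 ± 0.31, 0.0219). Mycl missed the threshold with the deposited values (0.127) and without any 1 of the CD34+ or IFE arrays (0.0595 to 0.0847). Mycn missed it with the replicate block (0.0728), the deposited values (0.0792), the 2 groups alone (0.101) and without any 1 of the IFE arrays (0.0755 to 0.0922). No gene of the 7 lists passed in Gli1+ against CD34+ cells.

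**Figure D5:**
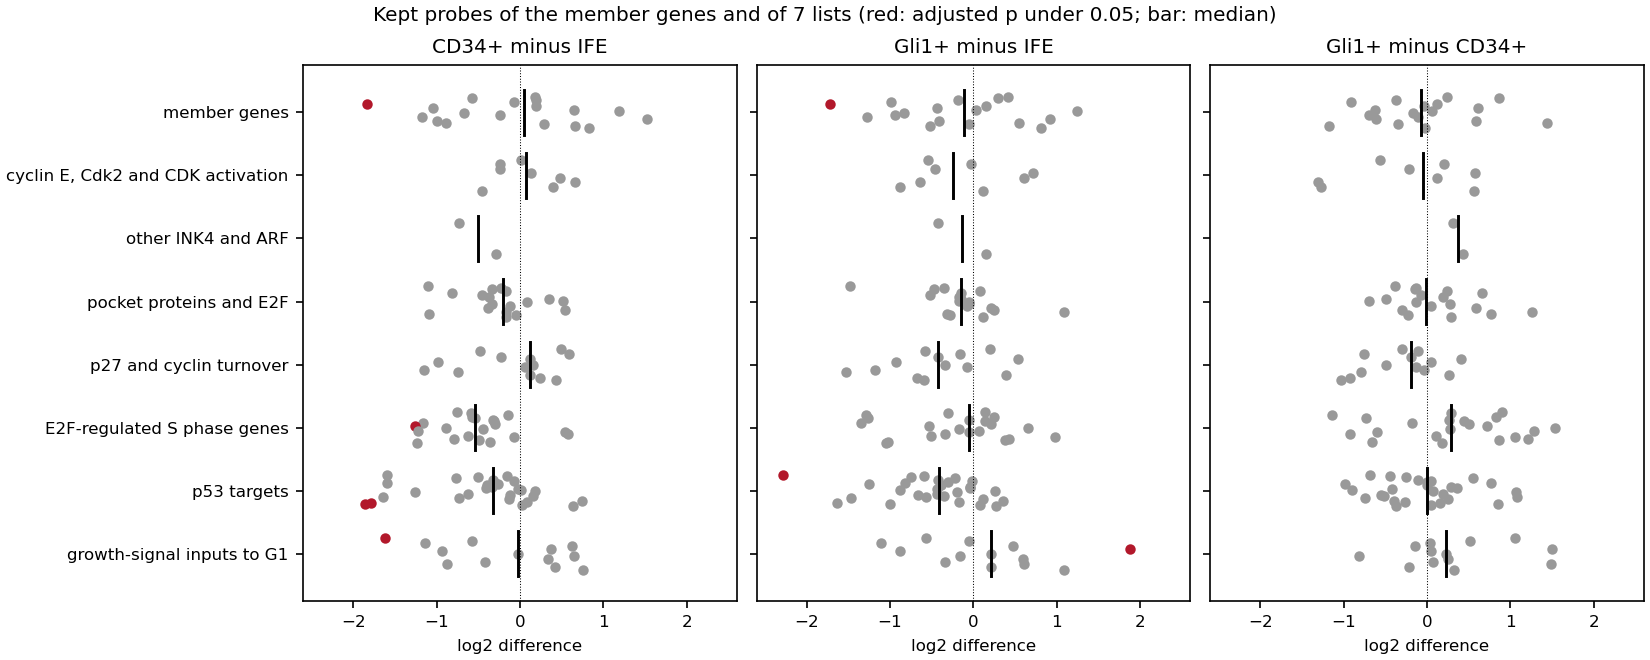
Log2 differences of the kept probes of the G1 genes and of 7 pathway lists in each comparison, red where the adjusted p is under 0.05, with a bar at each list's median. Red points are Cdk6, Ccna2, Sesn2, Gadd45a and Mycl for CD34+ minus IFE and Cdk6, Sesn2 and Mycn for Gli1+ minus IFE.

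Summed levels of some markers of other cells differed between the groups. Each sum takes all probes of a list, undetected ones included, so it holds a background floor. On IFE replicate 2, melanocyte genes summed to 247 with 0 of 9 probes detected. Fibroblast genes had 1 to 2 of 14 probes detected on the IFE arrays. Keratinocyte genes were detected on 6 or 7 of 7 probes on every array, with summed linear levels of 14650 to 16701 in Gli1+ cells, 18364 to 20491 in CD34+ cells and 16041 to 18551 in IFE cells. The summed suprabasal keratins and envelope genes stood at 10682 to 14970, 5066 to 7163 and 6322 to 10152 in the same groups, and the Langerhans cell and macrophage genes at 2056 to 3082, 1173 to 1535 and 954 to 1240. For fibroblast genes the sums were 789 to 1089 in Gli1+, 1935 to 2240 in CD34+ and 497 to 715 in IFE cells. Of these 9 genes 3 were kept, all 3 higher in CD34+ than in IFE cells, while Pdgfra, Lum and Col3a1 were not detected on any array. Cd207 and Cd74, of Langerhans cells, were detected on every array. Melanocyte genes summed to 376 to 526 in Gli1+, 469 to 583 in CD34+ and 247 to 286 in IFE cells. Of the 3 kept, Mitf, a transcription factor of melanocytes and other cells, was higher than in IFE cells in Gli1+ cells (2.39, limma adjusted p = 0.0219) and in CD34+ cells (3.05, 0.00132), whereas Tyrp1 and Dct were not detected on any array. T cell genes summed to 777 to 1335 in Gli1+, 1039 to 1439 in CD34+ and 1312 to 1690 in IFE cells. Endothelial genes were detected on 0 to 2 of 8 probes, and the 10 kept dissociation stress genes held none that passed in a comparison. The part of these cells in the differences of Cdk6, Ccnd2, Ccnd3, Cdkn1a and Cdkn1c was not tested.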

How the data were processed

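Basal keratinocytes sorted into Gli1+ (2 samples), CD34+ (3) and IFE (3) were measured on Illumina MouseRef-8 arrays. Per the labels, RNA was extracted with Trizol, and GenomeStudio 2010.3 is named in the submitters' processing notes. Per the file headers, the deposited intensity of a probe is averaged over its beads. The authors deposited it without background correction or normalisation. The same matrix has, per the file headers, the count of beads, a signal column with the standard error over beads, and a detection p-value. The deposited log2 table equals log2 of that intensity within 5.52817e-05 and served as an alternative. No genome build for the array is given in the sources used here, and the promoter windows are those of GRCm38.p6.

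Background correction and quantile normalisation were done with neqc (limma 3.58.1, R 4.3.3, offset 16, negative controls estimated from detection p-values). Probes were named from the platform annotation, in which 23978 of 25697 had 1 symbol and 1719 none. The 14252 probes detected at p under 0.05 on at least 2 arrays entered 1 limma fit of all 8 arrays (lmFit, then eBayes, with 5.16 prior and 5 residual degrees of freedom), with two-sided tests and Benjamini-Hochberg adjustment within each comparison at a threshold of 0.05. Arrays give no counting depth, so their number limits the precision. The fit was tested on simulated data with known changes. Samples of one number came from the same pool of mice, per the labels, and their deviations from the group means correlated between −0.037 and 0.085. Between CD34+ and IFE arrays the correlation was 0.056, 0.049 and 0.085 for replicates 1, 2 and 3. It was −0.049 to −0.011 for CD34+ and IFE arrays of unlike number. The Gli1+ arrays deviate from their mean by equal and opposite amounts. A fit with the number as a block was 1 of 19 alternatives. The others were other background corrections, normalisations, filters and ways of joining probes, a fit of the compared groups alone, and leaving out each array.

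The genes and lists were chosen with earlier results of these data known. The text names every probe of the chosen genes, the sort genes, the list genes past the threshold and the 3 probes most like Cdk6. E2f1, E2f4, Fbxo4, Fbxw7, Mnat1, Pdgfra, Lum, Col3a1, Cd207, Cd74, Tyrp1 and Dct were named after their values were seen. The p-values measure the spread between arrays within the groups, each array from a pool of 2 mice. That spread includes differences in sorting and array quality. The main fit treated all arrays as independent, although samples of one number shared a pool.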

Additional observations from a re-analysis of the deposited data

How the results depend on the processing

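Counts of kept probes and of probes of the G1 genes past the threshold (limma, Benjamini-Hochberg) moved between settings, as did the sign of some differences. With the deposited values the 1 called G1 probe for CD34+ against IFE was Ccnd3 ILMN_3131063, higher (limma adjusted p = 0.0386). Cdk6 was at 0.0539 there. In CD34+ against IFE cells the 585 called probes became 1053 in a fit of those groups alone and 228 to 1053 when 1 array was left out. Without a Gli1+ array this equals the fit of the 2 groups, because a lone Gli1+ array adds no spread. For the G1 genes the single called probe became 3 with a normexp offset of 50, 4 without background correction, 2 without a detection filter, with a stricter filter or with the mean of a gene's probes, and 6 with those groups alone (0 to 6 with 1 array left out, 0 without CD34+ replicate 3 or IFE replicate 1 or 3, with 7 at an unadjusted p under 0.05 in each, beside 1771 to 1933 of all probes). In Gli1+ against IFE cells the 228 calls became 345 without background correction, 5 with those groups alone and 32 with the replicate block (38 to 1682 with 1 array left out, the highest without Gli1+ replicate 2). The single called G1 probe became 0 with no detection filter, the deposited log2 values, cyclic loess, those groups alone or the replicate block (0 to 1 with 1 array left out), with 4 to 8 of these probes at an unadjusted p under 0.05 in those 5 settings, where 1997 to 3361 of all probes were. In Gli1+ against CD34+ cells the 131 calls became 209 with an offset of 50, 240 without background correction, and 0 with those groups alone or the replicate block, where 1825 and 2065 probes had an unadjusted p under 0.05 (1 to 1704 with 1 array left out). The 0 called G1 probes became 2 without Gli1+ replicate 2, and their range with 1 array left out was 0 to 2. The replicate block changed no other call of a G1 probe.

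The split into higher and lower calls moved by over 10 percentage points under some scalings. For CD34+ against IFE it was 357 and 228, and became 390 and 117 with median centring, which moved the median difference of all probes to 0.12, and 396 and 107 with the deposited values. For Gli1+ against IFE the 136 higher and 92 lower became 205 and 50 with median centring, 207 and 62 with cyclic loess, and 181 and 18 with the deposited values. For Gli1+ against CD34+ the 56 and 75 became 113 and 73 with cyclic loess, and 57 and 49 with the deposited values. Among 996 values of the G1 probes under the alternatives, 53 changed sign, in 22 of 54 results, and none of these passed the threshold under either setting. The 996 include the mean of a gene's probes, which is given to each of its probes, so some signs changed through the gene's other probes. Ccnd3 ILMN_1246473 went from −0.99 to 0.36 for Gli1+ minus IFE in this way. Cdk6 kept its sign in both comparisons with IFE. The causes of the other changes were not tested. Dim probes, such as Cdk6 outside IFE cells, lie near background, where detected log2 levels begin at 5.08 to 5.62.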
